A study of Mus musculus with 12 samples.

Results

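The genes described here are 8 genes of cytotoxic lymphocytes, Gzma, Gzmb, Nkg7, Prf1, Ncr1, Klrd1, Cd3e and Cxcr3, out of the 24538 genes counted in sorted mouse bone marrow cells. They were picked by symbol after their levels in these libraries had been seen, so their levels and differences over the 6 groups are given as a description. Where calls of the fit over all genes are counted for them, the share of all genes called stands beside the count and nothing is read from it. The series takes up the roles of Tet2 beyond its enzymatic activity, Tet2 being a dioxygenase that oxidises methylated cytosine in DNA. RNA was sequenced from a Tet2 knockout (KO), a Tet2 mutant (Mut) and a wild type (WT), all of a 129/C57/B6 mixed strain and 10 weeks old, in LSK cells and in cells labelled MPP. LSK cells are marrow cells without lineage markers but with Sca-1 and Kit on their surface, the fraction where blood stem cells are found, and MPP stands for multipotent progenitors. The 6 groups are LSK KO, LSK Mut, LSK WT, MPP KO, MPP Mut and MPP WT, with 2 libraries each. For each genotype, marrow of 2 mice was pooled, and the 2 libraries of a group are technical replicates from that pool, so that errors and p-values measure the spread between libraries and not between mice. Neither the residues changed in Mut nor how MPP cells were gated is given by the labels, whose titles say Lin where their descriptions say MPP.

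Cytotoxic lymphocytes are natural killer (NK) cells and cytotoxic T cells. They kill a bound target cell by emptying granules onto it: perforin, the product of Prf1, opens pores in the membrane, and granzymes, the serine proteases encoded by Gzma and Gzmb, enter and start cell death. Nkg7 encodes a granule membrane protein, Ncr1 and Klrd1 encode NK receptors, Cd3e encodes a signalling chain of the T cell receptor, and Cxcr3 encodes a receptor for interferon-induced chemokines. In marrow, mature NK and T cells carry these products. Gzmb is also made by mouse mast cells, and Nkg7 stood at 234 CPM or more in every library here, LSK included.

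Gene counts ran from 9181027 to 23532847 per library, and 3 counts, the limit that a count of 0 allows, are worth 0.135 to 0.317 CPM (counts scaled to a common library total). The LSK WT libraries stood apart: they had 12470 and 12614 genes with a count, against 13333 to 14264 in the other 10 libraries, and a gene's median fold between their replicates was 1.76, against 1.32 to 1.46 in the other groups. Tet2 stood at 29.2 and 31.7 CPM in LSK KO and at 43.4 and 44.3 CPM in LSK Mut, against 87.3 and 62.6 CPM in LSK WT. In MPP it stood at 34.9 and 34.9 CPM in KO and at 40.1 and 37.4 CPM in Mut, against 39.6 and 29.4 CPM in WT, so Tet2 counts do not separate the MPP libraries, and MPP KO, Mut and WT below mean the libraries labelled so. Spike-in RNAs made up 0.0822% to 0.229% of counts in LSK and 3.16% to 5.15% in MPP.

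The proximal promoters of the most abundant member and of the granzyme genes are shown because these 3 genes followed different patterns over the groups. Each runs from 250 bases before to 50 bases after the start site in RefSeq (GRCm38.p6). Capitals mark the T-box core (GGTGTG or CACACC), the RUNX core (TGTGGT or ACCACA), the ETS core (AGGAAG or CTTCCT) and the AP-1 motif (TGANTCA), searched on both strands. No matches overlap, and positions are of a match's first base, with the start site as 1 and no position 0. The regions are chr13:113100932-113101231 on the minus strand for Gzma, chr14:56262285-56262584 on the minus strand for Gzmb and chr7:43436888-43437187 on the plus strand for Nkg7.
Gzma: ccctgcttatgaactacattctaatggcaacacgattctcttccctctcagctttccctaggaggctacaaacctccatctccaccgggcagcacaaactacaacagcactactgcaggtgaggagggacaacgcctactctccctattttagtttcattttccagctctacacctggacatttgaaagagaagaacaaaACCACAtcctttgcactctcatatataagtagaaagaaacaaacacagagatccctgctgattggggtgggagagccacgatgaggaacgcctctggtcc
Gzmb: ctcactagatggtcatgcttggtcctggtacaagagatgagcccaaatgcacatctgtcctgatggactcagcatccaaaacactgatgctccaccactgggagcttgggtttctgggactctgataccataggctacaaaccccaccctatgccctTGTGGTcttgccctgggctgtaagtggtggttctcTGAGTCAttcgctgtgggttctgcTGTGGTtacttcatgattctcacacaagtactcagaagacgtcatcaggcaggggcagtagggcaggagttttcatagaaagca
Nkg7: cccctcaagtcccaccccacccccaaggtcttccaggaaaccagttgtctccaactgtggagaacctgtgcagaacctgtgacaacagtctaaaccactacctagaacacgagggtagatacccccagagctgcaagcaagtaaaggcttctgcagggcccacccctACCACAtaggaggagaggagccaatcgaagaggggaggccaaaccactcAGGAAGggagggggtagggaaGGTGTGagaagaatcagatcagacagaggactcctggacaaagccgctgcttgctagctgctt
Gzma held a RUNX core at -50. Gzmb held RUNX cores at -93 and -34 and an AP-1 motif at -58. Nkg7 held a T-box core at -13, an ETS core at -34 and a RUNX core at -83. Of the 7 members with a RefSeq promoter, 6 held a RUNX core and 4 an ETS core, whereas 16.8% and 35.4% of 32851 mouse promoters of the same length did. A T-box core was in 1 of the 7, against 19.0% of all promoters, and an AP-1 motif was in 1 of the 7, against 7.81%. A match describes letters in these windows and says nothing of binding.

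Gzma (chromosome 13, 113093825 to 113100981 of GRCm38, minus strand) was the member with the largest fold between MPP genotypes. It had 1.16 and 2.87 CPM in LSK KO and 0 and 0.702 CPM in LSK Mut, against 0 in both LSK WT libraries. It had 40.8 and 39.9 CPM in MPP KO and 5.08 and 1.64 CPM in MPP Mut, against 52.1 and 56.7 CPM in MPP WT. The MPP Mut libraries thus lay far below all other MPP libraries, next to LSK KO, with which they overlapped. The ratio of means was 16.2-fold lower in MPP Mut than in MPP WT and 1.35-fold lower in MPP KO than in MPP WT. Fitted log2 differences were -3.99 (SE 0.49) and -0.43 (SE 0.43). In bulk RNA, fewer cells of a type and less RNA per cell cannot be told apart. The 25 NK and innate lymphoid genes summed to 789 to 899 CPM in MPP Mut and 808 to 878 CPM in MPP KO, against 931 to 947 CPM in MPP WT. The most abundant of these were Tyrobp and Fcer1g, and Tyrobp is an adaptor that myeloid cells also use. In LSK WT the list still summed to 171 to 184 CPM with 17 of its genes at 0. The sum is thus no measure of NK cells alone. The 10 neutrophil genes, like Gzma, were lowest in MPP Mut: they summed to 1097 to 1103 CPM in MPP Mut and 2284 to 2338 CPM in MPP KO, against 2067 to 2170 CPM in MPP WT, and their part in its level was not tested. Gzmk, the granzyme gene 70627 bases from Gzma, was listed with 0 counts in the LSK libraries and in MPP Mut, and had 2.65 and 7.72 CPM in MPP KO and 2.60 and 3.20 CPM in MPP WT.

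Prf1 (chromosome 10, 61297833 to 61304680, plus strand), the pore former, was low and uneven between replicates. It had 0.0552 and 3.88 CPM in LSK KO and 0 and 0.486 CPM in LSK Mut, against 0 in both LSK WT libraries. It had 6.33 and 5.77 CPM in MPP KO and 2.83 and 0.132 CPM in MPP Mut, against 10.7 and 15.5 CPM in MPP WT. In MPP the groups did not overlap, and Mut was lowest and WT highest. The fitted log2 difference of Mut from WT was -3.11 (SE 1.11) and that of KO from WT -1.11 (SE 1.03). The 54 counts of LSK KO replicate 2 stood beside 1 count in replicate 1, so its LSK KO level rests on 1 library.

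Gzmb (chromosome 14, 56258838 to 56262260, minus strand), unlike Gzma, had counts in every library. It had 2.04 and 3.37 CPM in LSK KO and 17.3 and 14.4 CPM in LSK Mut, against 25.4 and 62.2 CPM in LSK WT. The LSK groups did not overlap. The ratio of means was 16.2-fold lower in LSK KO than in LSK WT, 2.77-fold lower in LSK Mut than in LSK WT, and 5.84-fold lower in LSK KO than in LSK Mut. In MPP it had 22.4 and 30.0 CPM in KO and 50.1 and 55.8 CPM in Mut, against 44.4 and 41.5 CPM in WT. KO was again the lowest genotype, and Mut was 1.23-fold higher than WT by the ratio of means, a direction that turns under spike-in scaling (log2 0.30 in the fit, -0.28 with spike-ins). Of the other granzyme genes of its cluster, Gzmd, Gzme, Gzmf, Gzmg and Gzmn were listed at 0 in all 12 libraries and Gzmc reached 0.466 CPM in MPP WT replicate 1 and was at 0 elsewhere. How reads that match several of these similar genes were counted is not given in the sources used here.

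The summed level of 10 mast cell and basophil genes moved in the same genotype order as Gzmb within each population. It was 304 to 421 CPM in LSK KO and 464 to 502 CPM in LSK Mut, against 518 to 583 CPM in LSK WT. In MPP it was 5244 to 5645 CPM in KO and 12171 to 12655 CPM in Mut, against 8431 to 9001 CPM in WT. Of this list Mcpt4 and Tpsab1 were at 0 in the 3 LSK groups, and Tpsb2 and Tpsab1 in the 3 MPP groups. Within MPP, the plot of Gzmb against this sum shows the genotypes apart on both axes. Between populations the order did not hold, since LSK WT had as much Gzmb as MPP WT with a far lower sum. The part of these cells in the Gzmb levels was not tested.

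**Figure D1:**
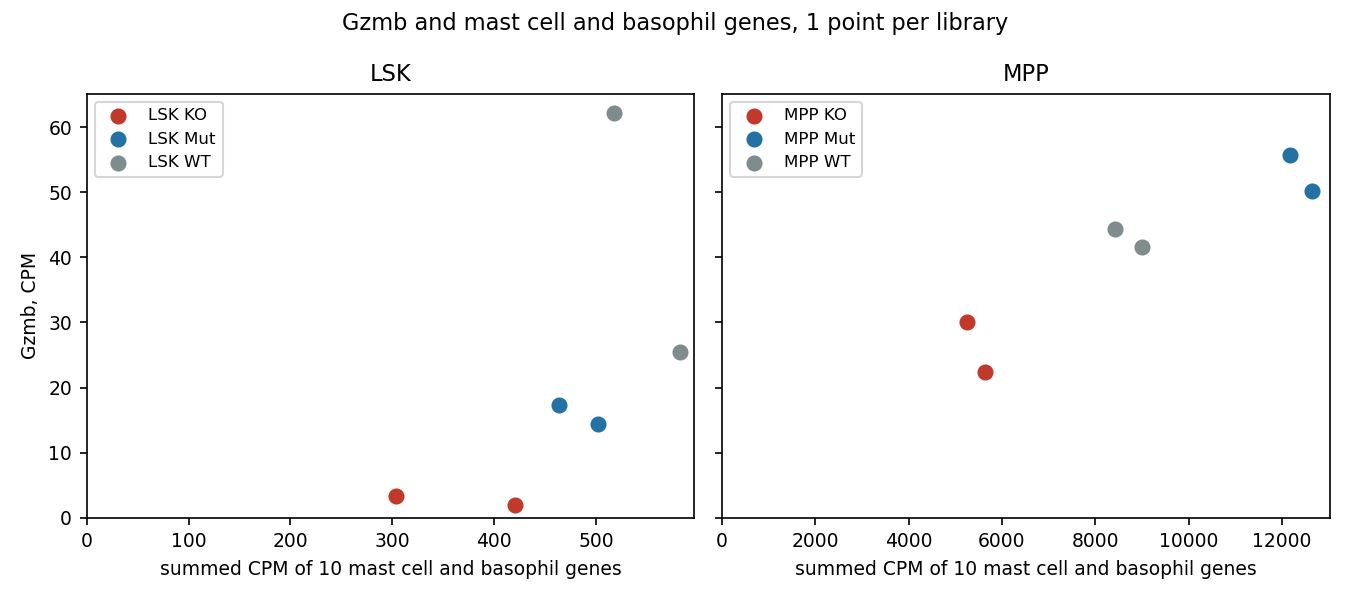
Gzmb (CPM, vertical axis) against the summed CPM of 10 mast cell and basophil genes (horizontal axis, different scales), with LSK libraries on the left and MPP libraries on the right and 1 point per library. In MPP the KO points lie between 22.4 and 30.0 CPM of Gzmb at the lowest sums and the Mut points between 50.1 and 55.8 CPM at the highest.

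Nkg7 (chromosome 7, 43437073 to 43438249, plus strand) was by far the most abundant member. Per kilobase of exon it averaged 435 CPM in LSK KO, 465 in LSK Mut, 276 in LSK WT, 1142 in MPP KO, 1238 in MPP Mut and 1472 in MPP WT, while no other member exceeded 54.1 CPM per kilobase in a group. It had 394 and 400 CPM in LSK KO and 430 and 419 CPM in LSK Mut, against 234 and 270 CPM in LSK WT. It had 1064 and 1023 CPM in MPP KO and 1178 and 1085 CPM in MPP Mut, against 1307 and 1383 CPM in MPP WT. The 6 groups did not overlap, and WT was lowest in LSK and highest in MPP, while KO was below Mut in both populations. The fitted log2 differences from WT were 0.63 (SE 0.13) for KO and 0.73 (SE 0.13) for Mut in LSK, and -0.37 (SE 0.07) for KO and -0.25 (SE 0.07) for Mut in MPP. Its 5570 to 7764 counts in the KO and Mut libraries and 2222 and 3389 counts in the WT libraries of LSK show the gene well measured there too, while Gzma, Prf1, Ncr1, Cd3e and Cxcr3 had 0 counts in LSK WT.

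**Figure D2:**
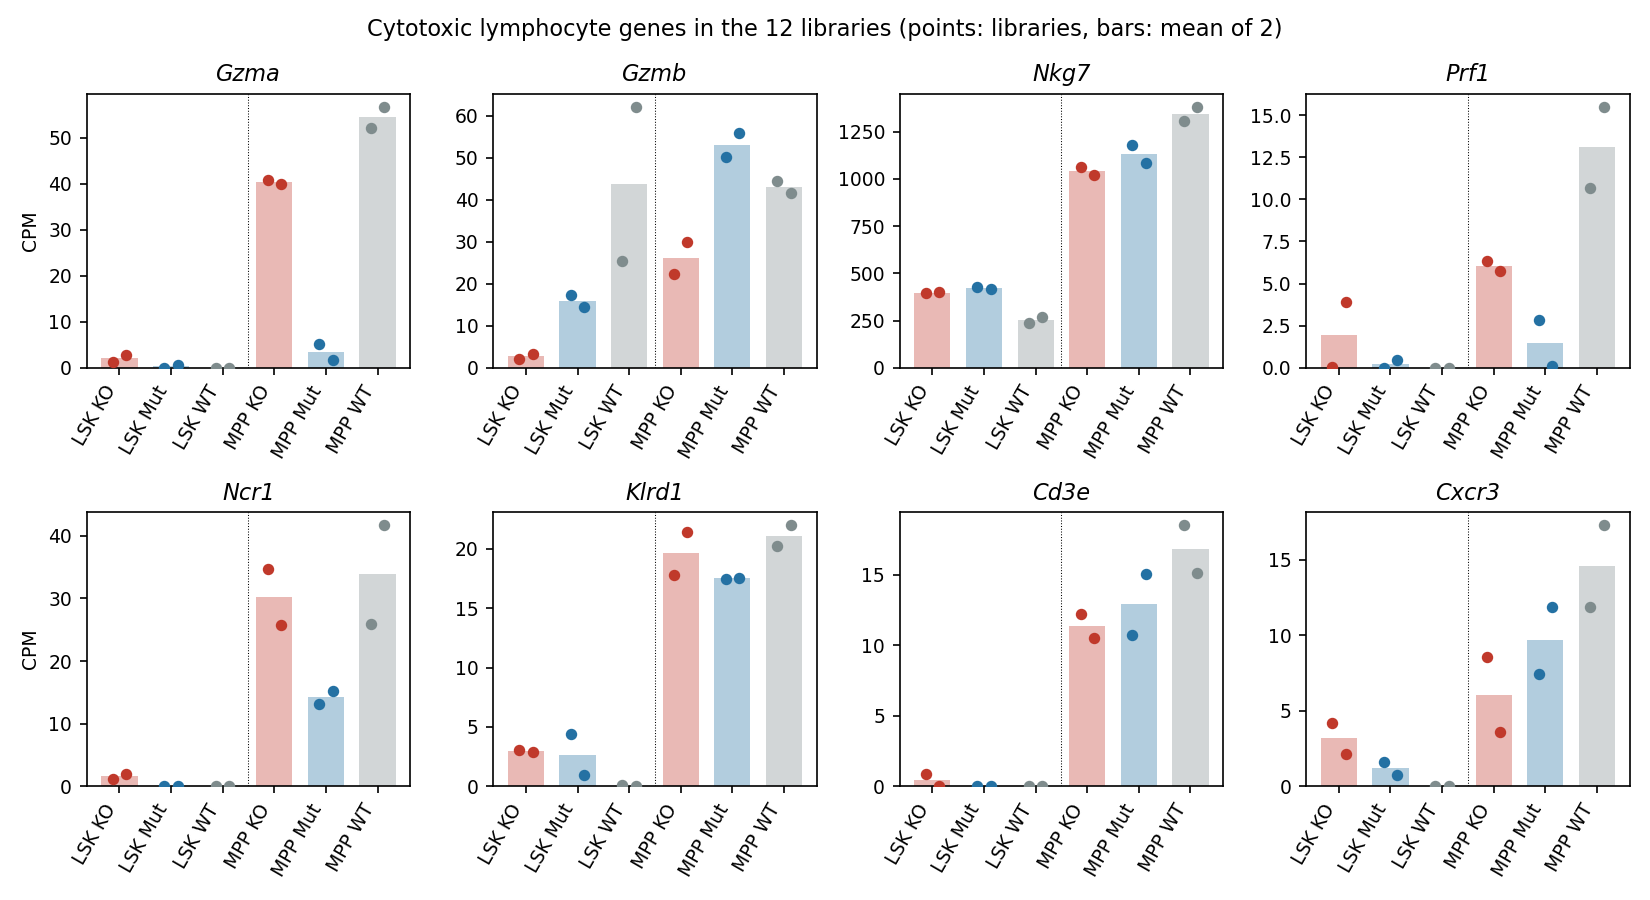
Level of each member in CPM (vertical axes, different scales) in the 6 groups, with points for the 2 libraries and bars for their mean. Gzma is at 5.08 and 1.64 CPM in MPP Mut and at 39.9 CPM or more in the other MPP libraries, and 5 members are at 0 in both LSK WT libraries.

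Ncr1 (chromosome 7, 4337724 to 4345164, plus strand), a receptor that defines NK cells and related innate lymphocytes, was measured in LSK only in KO. It had 1.16 and 2.01 CPM in LSK KO, against 0 in the 4 LSK Mut and LSK WT libraries, where up to 0.0825 CPM and 0.136 CPM per group are allowed by counting. LSK KO was at least 18.6-fold higher than LSK Mut and at least 11.2-fold higher than LSK WT. In MPP it had 34.7 and 25.7 CPM in KO and 13.2 and 15.2 CPM in Mut, against 26.0 and 41.7 CPM in WT. MPP Mut was below both other genotypes, which overlapped, with a log2 difference from WT of -1.25 (SE 0.35). For KO against WT in MPP the difference of -0.16 (SE 0.34) changed sign without MPP KO replicate 2 (0.03) or MPP WT replicate 2 (0.22).

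Klrd1 (chromosome 6, 129591782 to 129598775, plus strand), the shared chain of NK receptors that bind MHC class I, varied least over the MPP genotypes. It had 3.04 and 2.87 CPM in LSK KO and 4.37 and 0.972 CPM in LSK Mut, against 0.106 and 0 CPM in LSK WT. The LSK WT value is 1 count, and the ratio of counts was 65.3 for KO (95% interval 11.4 to 2607) and 58.1 for Mut (10.2 to 2319), intervals that cover counting error only. It had 17.8 and 21.4 CPM in MPP KO and 17.5 and 17.6 CPM in MPP Mut, against 20.2 and 22.0 CPM in MPP WT. The MPP genotypes were within 1.21-fold of each other by their means. The log2 difference of KO from WT in MPP, -0.11 (SE 0.32), turned to 0.02 without MPP KO replicate 1, and that of KO from Mut in LSK, 0.15 (SE 1.51), turned to -0.56 without LSK Mut replicate 2.

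Cd3e (chromosome 9, 44998740 to 45009627, minus strand) was the member nearest to absent in LSK. Its 16 counts in LSK KO replicate 1, or 0.884 CPM, were the only ones in the 6 LSK libraries. In MPP it had 12.2 and 10.5 CPM in KO and 10.7 and 15.1 CPM in Mut, against 18.5 and 15.1 CPM in WT. The means were 1.48-fold lower in KO and 1.30-fold lower in Mut than in WT, with KO and Mut overlapping. The annotated transcripts Gm48719, on the opposite strand, and Gm48720, on the same strand, overlap Cd3e and were not analysed here. With no strand setting given, their reads and those of Cd3e cannot be told apart.

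Cxcr3 (chromosome X, 101731535 to 101734269, minus strand), the chemokine receptor, was the member with the smallest gap between populations in KO. It had 4.20 and 2.15 CPM in LSK KO and 1.62 and 0.756 CPM in LSK Mut, against 0 in both LSK WT libraries. LSK KO was at least 24.3-fold and LSK Mut at least 8.68-fold higher than LSK WT. It had 8.53 and 3.59 CPM in MPP KO and 7.42 and 11.9 CPM in MPP Mut, against 11.9 and 17.3 CPM in MPP WT. In MPP, KO did not overlap WT, and Mut overlapped both, its libraries reaching up to those of WT and down to those of KO.

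For KO against WT, 4 of the 8 members (Gzma, Nkg7, Prf1 and Cxcr3) were higher in LSK and lower in MPP in both libraries. The share of all genes with this joint pattern was not counted, so nothing is read from the number. In LSK, 6 members had both KO libraries above both WT libraries (Gzma, Nkg7, Prf1, Ncr1, Klrd1 and Cxcr3), 1 had them below (Gzmb) and Cd3e overlapped. In MPP, 6 had both KO libraries below both WT libraries and none had them above. Of the 6 higher in LSK, Prf1 was under the count filter. Over all genes tested, 25% lay apart in the higher direction in LSK KO against WT and 18% in the lower one, and in MPP KO against WT 19.9% lay apart higher and 20.1% lower. For Mut against WT, 3 members lay apart higher and 1 lower in LSK (26.8% and 20.3% of all genes), and 1 higher and 6 lower in MPP (19.8% and 19.4%). For KO against Mut, 3 lay apart higher and 2 lower in LSK (21.7% and 21.5%), and 4 higher and 2 lower in MPP (20.3% and 19.9%). Of the 6 members tested in LSK (Prf1 and Cd3e were under the count filter), 0 were called by edgeR for KO against WT at an adjusted p below 0.05 (0.0456% of genes), 1 for Mut against WT (Nkg7, higher; 1.28%) and 0 for KO against Mut (0.0607%). All 8 were tested in MPP, with 0 called for KO against WT (0.363%), Gzma lower for Mut against WT (0.224%) and Gzma higher for KO against Mut (0.239%). These contrasts chose the members, and nothing is read from the calls. The summed levels of the plasmacytoid dendritic cell and B cell lists also stood higher in LSK KO than in LSK WT and lower in MPP KO than in MPP WT. The 10 plasmacytoid dendritic cell genes summed to 660 to 671 CPM in LSK KO, against 508 to 558 CPM in LSK WT, and to 751 to 778 CPM in MPP KO, against 933 to 1028 CPM in MPP WT, with Klk1 at 0 in every group and Siglech at 0 in LSK WT. The 12 B cell genes summed to 69.2 to 69.6 CPM in LSK KO, against 60.9 to 65.5 CPM in LSK WT, and to 73.1 to 80.2 CPM in MPP KO, against 89.0 to 96.9 CPM in MPP WT, with Pax5 at 0 in every group. Other lists went the other way in LSK. There the neutrophil genes summed to 42.2 to 49.7 CPM in KO, against 97.9 to 173 CPM in WT. The erythroblast genes had 32.8 to 34.5 CPM, against 42.6 to 57.9 CPM. The macrophage and monocyte genes had 95.1 to 128 CPM, against 145 to 151 CPM. The mast cell and basophil genes were lower too. In MPP the neutrophil and erythroblast sums were higher in KO than in WT. The part of these cells in the members' levels was not tested.

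LSK libraries were below MPP libraries for nearly all members. In KO the ratio of means was 25.7-fold lower in LSK for Cd3e, 20.03 for Gzma, 19.0 for Ncr1, 9.67 for Gzmb, 6.64 for Klrd1, 3.08 for Prf1, 2.63 for Nkg7 and 1.91 for Cxcr3, whose libraries overlapped. In Mut it was at least 170-fold lower for Ncr1 and at least 152-fold for Cd3e, then 9.58 for Gzma, 8.12 for Cxcr3, 6.57 for Klrd1, 6.10 for Prf1, 3.35 for Gzmb and 2.66 for Nkg7. The Prf1 difference in Mut turned from -2.57 to 0.86 (log2) without MPP Mut replicate 1. In WT it was at least 396-fold lower for Gzma, 237 for Ncr1, 126 for Cd3e, 103 for Cxcr3 and 92.5 for Prf1, and 5.33-fold lower for Nkg7. Klrd1 had 1 count in LSK WT, a ratio of counts to MPP WT of 0.00217 (95% interval 5.48e-05 to 0.0121). Gzmb alone stood level in WT, at 43.8 ± 26.0 CPM in LSK and 42.9 ± 2.00 CPM in MPP (SD, n = 2), and its log2 difference of 0.03 turned to -0.76 without LSK WT replicate 2. In each genotype 7 members had both LSK libraries below both MPP libraries, as did 30.7% of all genes in KO, 27.6% in Mut and 30.7% in WT. Called lower were 6 members in KO (8.14% of genes), 4 in Mut (5.21%) and 7 in WT (13.7%). The levels over these groups chose the members, and nothing is read from these calls. These levels are relative to all genes: scaling by spike-ins moved the median gene by 4.61 (log2) in KO, 5.85 in Mut and 4.17 in WT towards LSK and turned the fitted sign of every member but Cd3e in KO, of every member but Ncr1 and Cd3e in Mut, and of Nkg7 in WT (-2.41 to 1.78).

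By summed level, genes of the sorting gates separated the populations in the other direction. The 8 stem and progenitor surface genes, among them Kit, Ly6a and Flt3, summed to 2733 to 3518 CPM in LSK and 708 to 888 CPM in MPP. The lower level in LSK was not particular to lymphocyte genes. The 10 neutrophil genes summed to 42.2 to 173 CPM in LSK and 1097 to 2338 CPM in MPP. The 10 erythroblast genes summed to 21.3 to 57.9 CPM in LSK and 478 to 1085 CPM in MPP. The 10 mast cell and basophil genes summed to 304 to 583 CPM in LSK and 5244 to 12655 CPM in MPP. The 25 NK and innate lymphoid genes summed to 171 to 229 CPM in LSK and 789 to 947 CPM in MPP. In LSK WT, 17 of these 25 were at 0, among them Klrc1, Klre1, Cd160, Ifng and Xcl1, and 10 of 24 T cell receptor genes were at 0, among them Cd3d, Cd3g and Zap70. In LSK KO it was 11 of 25 and 3 of 24, and in LSK Mut 13 of 25 and 2 of 24. The genes of cytotoxic T cells were scarce throughout: Cd8a reached 1.78 CPM in LSK Mut replicate 2 and at most 0.200 CPM elsewhere, and Cd8b1 reached 2.501 CPM in MPP WT replicate 2 and at most 0.736 CPM elsewhere. Their part in the members' levels was not tested.

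Because the members' own levels chose them, 111 other lymphocyte genes in 5 lists were tested with edgeR's quasi-likelihood test over all genes with Benjamini-Hochberg adjustment. They were chosen with earlier results of these data known. None was called in the 6 comparisons of genotypes. In simulated data for LSK Mut against WT, 17.9% of 2-fold changes were called, so absent calls say little of such changes. The median log2 difference of these lymphocyte genes from WT was 0.24 for KO and 0.35 for Mut in LSK, and -0.35 for KO and -0.20 for Mut in MPP, against values between -0.01 and 0.01 over all genes. At an unadjusted p below 0.05 there were 16 of the 70 tested for LSK KO against WT (13 higher), 15 for LSK Mut against WT (11 higher) and 3 for LSK KO against Mut. These are 22.9%, 21.4% and 4.29% of those tested, beside 13.8%, 19.1% and 4.24% of all genes. Of the 95 tested in MPP there were 16 for KO against WT (12 lower), 16 for Mut against WT (14 lower) and 15 for KO against Mut (8 lower), which are 16.8%, 16.8% and 15.8%, beside 8.47%, 9.75% and 9.48% of all genes. DESeq2 called 7, 12 and 0 in LSK (for KO against Mut, of only 15 it gave an adjusted p) and 5, 4 and 5 in MPP in the same order, which are 10%, 17.6% and 0% in LSK and 5.26%, 4.21% and 5.68% in MPP, beside 4.5%, 10.8% and 3.12% and 2.1%, 2.33% and 2.41% of all genes. In LSK the call also depended on the WT libraries: without LSK WT replicate 2, 13 were called for KO and 16 for Mut, and without replicate 1, 8 and 14. Of all genes 12% and 18.7% were then called without replicate 2, beside 16.2% and 20% of the lymphocyte genes, and 10.5% and 17.3% without replicate 1, beside 10% and 17.5%. In MPP 1 was called for KO against WT without MPP WT replicate 1 and 1 for Mut against WT without MPP WT replicate 2.

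Some of these genes are named, as none was called. Tbx21 and Eomes aside, they are from the most abundant of their lists but do not stand for the rest. Of the 95 tested in MPP, Srgn had the lowest edgeR adjusted p-value for KO against WT. Ccl5 had the lowest for KO against Mut. Il2rb, the interleukin receptor chain that NK cells need, had 72.7 and 68.4 CPM in MPP KO and 64.3 and 40.5 CPM in MPP Mut, against 89.8 and 131.7 CPM in MPP WT. Its log2 difference from WT was -0.65 (SE 0.27) for KO and -1.08 (SE 0.28) for Mut, with edgeR adjusted p-values of 0.567 and 0.253. Ccl5, a chemokine stored in cytotoxic granules, had 71.3 and 66.5 CPM in MPP KO and 32.1 and 31.2 CPM in MPP Mut, against 57.8 and 57.1 CPM in MPP WT. KO exceeded Mut by 1.12 (log2, SE 0.21, edgeR adjusted p = 0.133). Srgn, the granule proteoglycan serglycin that packs granzymes, differed by -0.37 in MPP KO from MPP WT (log2, SE 0.06, edgeR adjusted p = 0.0730). Tbx21 and Eomes, the T-box transcription factors of NK and cytotoxic T cells, averaged 15.9 ± 2.505 and 5.95 ± 5.11 CPM in MPP KO and 17.1 ± 4.77 and 6.22 ± 3.39 CPM in MPP Mut, against 18.3 ± 3.27 and 8.20 ± 1.71 CPM in MPP WT (SD, n = 2).

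Between populations, more of the other lymphocyte genes were called lower in LSK than higher. Of 95 tested, 24 were lower and 6 higher in KO, 21 lower and 1 higher in Mut, and 45 lower and 5 higher in WT. Among all 14033 genes, 8.14% were lower and 7.03% higher in KO, 5.21% and 3.55% in Mut, and 13.7% and 10.2% in WT. The lists' medians were -1.32, -1.84 and -2.61 (log2), against 0.05, 0.03 and 0 over all genes. Within LSK, 70 of the lymphocyte genes passed the count filter. Others of the 95 tested entered through MPP, where they were high, and could hardly be called higher in LSK in this fit. The splits and medians were thus partly set by the filter and by counts of 0 in LSK. The KO count of 30 fell to 13 without MPP KO replicate 2, to 14 without LSK KO replicate 2, to 17 without MPP KO replicate 1 and to 18 without LSK KO replicate 1, and was 46 without LSK WT replicate 1. The Mut count of 22 was 14 without LSK Mut replicate 1 and 40 without LSK WT replicate 1 or replicate 2, and 38 without both LSK WT libraries, where the KO count was 44. In each of these fits the calls over all genes moved the same way. Without both LSK WT libraries they went from 2128 to 3300 in KO and from 1229 to 2263 in Mut. Under spike-in scaling the split turned, with 48 higher and 1 lower in KO, 52 higher and 2 lower in Mut, and 39 higher and 13 lower in WT. Of all 14033 genes, 11986 were then called higher and 25 lower in KO, 12559 and 11 in Mut, and 11431 and 119 in WT. The shares called were 51.6%, 56.8% and 54.7% of the lymphocyte genes, beside 85.6%, 89.6% and 82.3% of all genes.

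**Figure D3:**
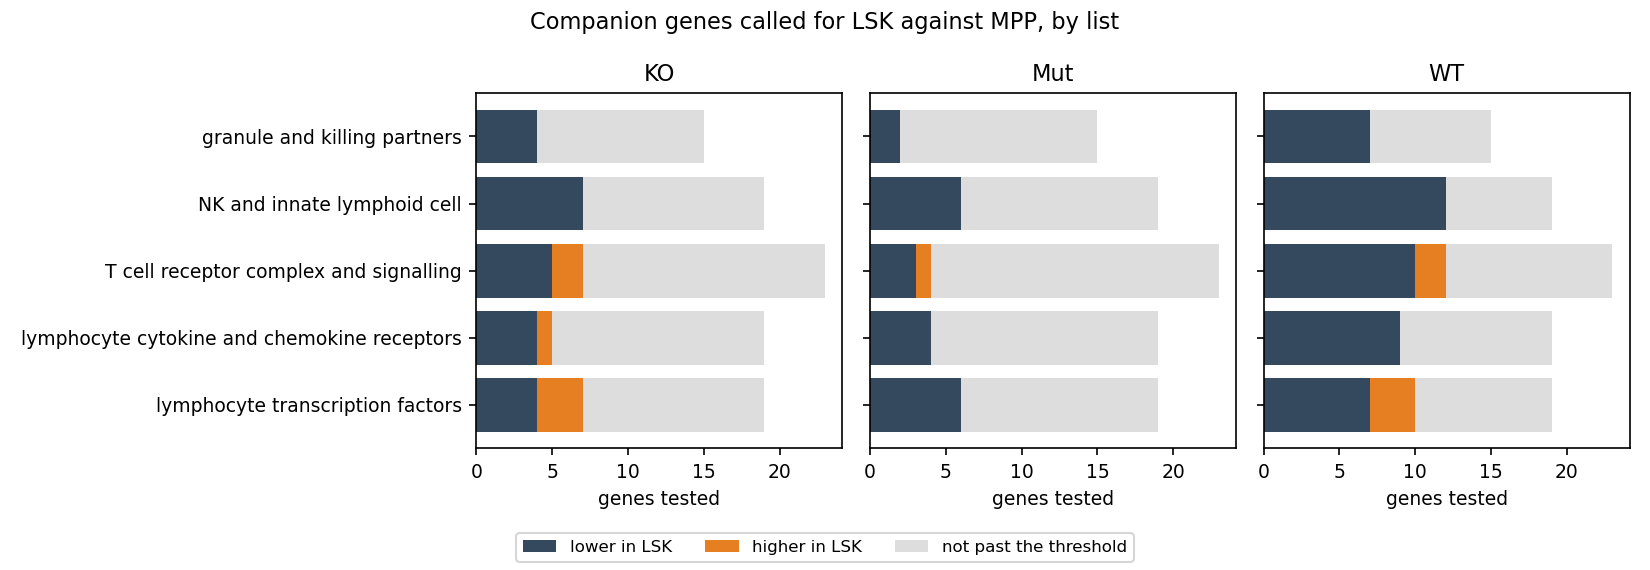
Number of genes tested in each list of lymphocyte genes (horizontal axis), divided into those called lower in LSK, called higher in LSK and not past the threshold, for LSK against MPP in KO, Mut and WT. Lower calls outnumber higher ones in each list, and WT has the most.

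Partners of the granule pathway were lower where called. Of the 15 tested, 4 were lower in KO, 2 in Mut and 7 in WT. Cst7, the cystatin that restrains the cathepsins which mature granzymes, had 92.2 and 96.9 CPM in LSK KO, against 402 and 378 CPM in MPP KO. Its log2 difference was -2.04 (SE 0.16, edgeR adjusted p = 1.37e-05) in KO, -1.95 (SE 0.16, edgeR adjusted p = 2.58e-05) in Mut and -3.44 (SE 0.17, edgeR adjusted p = 2.75e-07) in WT. Srgn was lower too, with log2 differences of -1.06 (SE 0.11), -0.997 (SE 0.11) and -1.86 (SE 0.11) in the same order, with edgeR adjusted p-values of 9.15e-05, 0.000208 and 1.16e-06. Fasl, the ligand of the other killing route, had 0 counts in LSK WT, at least 77.5-fold below MPP WT. It passed the count filter only through MPP, so nothing is read from its call.

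NK genes had the lowest medians of the 5 lists, though these medians do not measure the size of a gap. Within LSK, 11 genes of this list passed the count filter, and a fitted value against a group at 0 counts has no meaningful size. Of 19 tested, 7 were lower in KO, 6 in Mut and 12 in WT, with list medians of -3.09, -4.20 and -7.53, and none was higher. Xcl1, a chemokine that NK cells secrete, had 0.221 and 0.646 CPM in LSK KO, against 26.7 and 19.0 CPM in MPP KO, a ratio of 52.7. It had 0 counts in LSK Mut and in LSK WT, at least 182-fold below MPP Mut and at least 72.8-fold below MPP WT. Xcl1 passed the count filter only through MPP, so nothing is read from its calls. Tyrobp, an adaptor of activating NK receptors that myeloid cells also use, was 3.89-fold lower in LSK in KO and 5.38-fold lower in Mut (edgeR adjusted p = 4.54e-05 and 1.57e-05).

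T cell receptor genes were split. Of 23 tested, 5 were lower and 2 higher in KO, 3 and 1 in Mut, and 10 and 2 in WT. Cd3g, a neighbour of Cd3e in the same receptor, had 0.0552 and 0 CPM in LSK KO, against 12.3 and 15.5 CPM in MPP KO. It had 0 counts in LSK WT, at least 173-fold below MPP WT. Its counts in LSK KO and LSK WT were at or near 0, so nothing is read from the direction of its calls. Cd27, a costimulatory receptor that progenitors also carry, was the other way round: it had 175 and 172 CPM in LSK KO, against 41.1 and 31.4 CPM in MPP KO, and was higher by 2.26 (log2, SE 0.19, edgeR adjusted p = 2.48e-05) in KO and by 2.11 (SE 0.19, edgeR adjusted p = 5.02e-05) in Mut.

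Receptors and transcription factors gave 4 lower and 1 higher in KO, 4 lower in Mut and 9 lower in WT of 19 receptors, and 4 lower and 3 higher, 6 lower, and 7 lower and 3 higher of 19 factors. Il2rb had 0 counts in LSK WT, at least 782-fold below MPP WT (edgeR adjusted p = 0.000694), and had 0 and 2.65 CPM in LSK Mut, against 64.3 and 40.5 CPM in MPP Mut, 39.6-fold lower by the means (edgeR adjusted p = 0.0132). Its log2 difference in Mut of -5.29 was -4.30 without LSK Mut replicate 1, the library at 0. Tbx21 had 0 counts in LSK WT, at least 131-fold below MPP WT. It passed the count filter only through MPP, so nothing is read from its call. Ets1, a factor of lymphoid cells whose core motif is among those searched, was lower, with log2 differences of -1.55 (SE 0.26) in KO, -1.93 (SE 0.27) in Mut and -3.44 (SE 0.29) in WT, with edgeR adjusted p-values of 0.00268, 0.00114 and 1.21e-05. Id2, an inhibitor of E proteins needed for NK cells, was lower, with -2.001 (SE 0.28) in KO and -1.95 (SE 0.28) in Mut, with edgeR adjusted p-values of 0.000720 and 0.00139. Leaving out any single library of the 12 never ended the call for 10 of the 27 genes named by rule in KO, 12 of 22 in Mut and 23 of 30 in WT, and all lymphocyte genes given here with a called difference between populations are among these. Under spike-in scaling Cst7, Srgn, Ets1, Tyrobp and Id2 changed sign in the comparisons given, as did Il2rb in Mut.

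The genotype effect itself differed between populations for a few of these genes. For KO against WT, 5 of 95 had a more positive difference in LSK than in MPP (0.57% of all genes) and for Mut against WT 3 of 95 (1.52%). Cst7 differed by 1.40 (log2, SE 0.22, edgeR adjusted p = 0.0301) for KO and by 1.49 (SE 0.22, edgeR adjusted p = 0.00831) for Mut, standing at 92.2 and 96.9 CPM in LSK KO and 89.9 and 100.7 CPM in LSK Mut, against 48.6 and 34.99 CPM in LSK WT. Srgn differed by 0.81 (SE 0.15, edgeR adjusted p = 0.0434) and 0.87 (SE 0.15, edgeR adjusted p = 0.0156). The Mut difference of Cst7 held without each of the 12 libraries. That of Cst7 for KO was lost without either library of LSK KO, MPP KO or MPP WT and without MPP Mut replicate 1. Without any of those 7 libraries the number of such genes for KO was 0, without MPP Mut replicate 2 it was 1, and it was 3 when either LSK Mut library was left out. For Mut it was 1 without LSK Mut replicate 2, MPP Mut replicate 1 or 2 or MPP WT replicate 2. Without LSK WT replicate 1 it was 8 for KO and 8 for Mut, and without LSK WT replicate 2 it was 12 and 10. In each of these fits the number called over all genes moved the same way as the number given. Both effects share the WT libraries.

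The members were also compared with 12507 genes for the likeness of their profiles over the 12 libraries, as the root mean square (RMS) difference of log2(CPM + 1) after each gene's own mean was taken off. The nearest to Cd3e were Tbx21 (RMS 0.34), Ifng (0.39) and Cd2 (0.41), all lymphocyte genes. The nearest to Cxcr3 were Cd160 and Ccr9 (0.48 each) and Ifi30 (0.48). The nearest to Nkg7 were Calr (0.0987), Atp6ap2 (0.145) and Ddost (0.166). Calr and Ddost encode proteins of the endoplasmic reticulum and Atp6ap2 a part of the vacuolar proton pump, and none is in the lymphocyte lists. The nearest to Gzmb was Pdzph1 (0.36), then Abca8b (0.64) and Zfp251 (0.65). Gzma had no close match, with Mefv at 0.69, and Mefv was also near Prf1 (0.56, after Ccr8 at 0.46). The nearest to Ncr1 were Mcemp1 (0.45), Siglech (0.46) and Rnase12 (0.50), and to Klrd1 Ifi30, Gca and Mpeg1 (0.38 each). Among the members, Ncr1 and Cd3e were most alike (0.63) and Gzma and Gzmb least (2.36). All profiles share the libraries and the wide gap between populations.

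**Figure D4:**
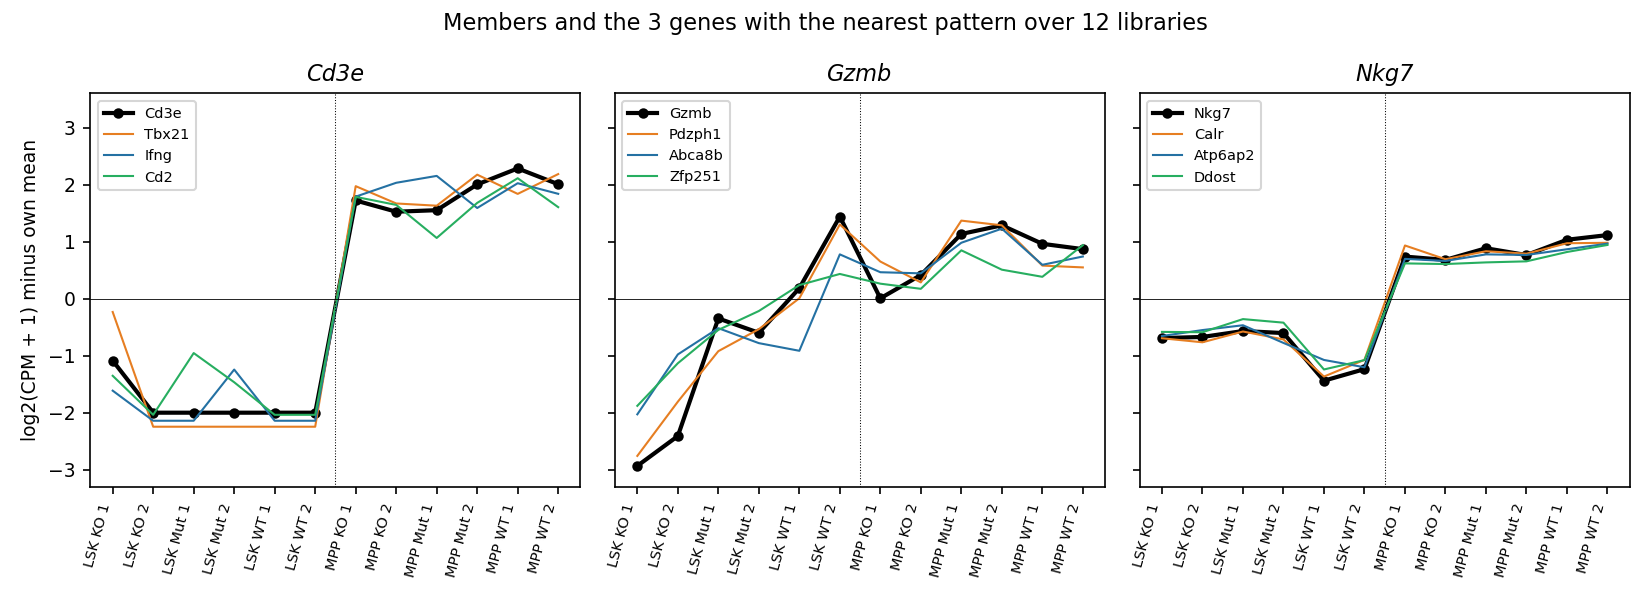
Profiles of Cd3e, Gzmb and Nkg7 with the 3 nearest genes over the 12 libraries (horizontal axis, joined only to guide the eye), as log2(CPM + 1) minus the gene's own mean (vertical axis). Nkg7 and its neighbours run within an RMS of 0.166 of it, while those of Gzmb lie up to 0.65 away.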

How the data were processed

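RNA of LSK and MPP cells was measured in 12 libraries. The authors deposited raw counts per gene symbol, 1 table per population with 24630 rows, of which 92 are spike-ins. Per the labels, RNA was amplified with ERCC spike-ins. Reads were 150 bp pairs. The submitters' processing notes name Trim Galore 0.4.1, TopHat2 2.0.13 and mm10, and also HTSeq 0.6.1 and Cufflinks, without their roles. The strand setting and gene annotation are not given in the sources used here. The name of the column used for MPP KO replicate 2 begins like that of replicate 1 and not like its own sample's title, and was assigned by its ending, which matches no other title.

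From the counts, CPM were computed on TMM-scaled library sizes over the genes. Tests were edgeR 4.0.16 quasi-likelihood fits in R 4.3.3 after filterByExpr (minimum count 10, total 15), with group means: genotypes were fitted within a population on 6 libraries (LSK 13170 and MPP 12947 genes tested, each fit with 3 residual degrees of freedom), and LSK against MPP and interactions on 12 libraries (14033 genes, 6 degrees). P-values were two-sided and Benjamini-Hochberg adjusted over all genes tested, and a gene was called below 0.05. The script was tested on simulated data, with changes put into well counted genes. For LSK Mut against WT it recovered 17.9% of 2-fold, 67.2% of 4-fold and 92.4% of 16-fold changes. For LSK against MPP in KO it recovered 17.9%, 59.7% and 92.4%. Folds against a group at 0 use a floor of 3 counts over the group. Ratios with 1 to 3 counts carry exact 95% intervals. Floors and intervals cover counting error only, as reads carry no molecular identifiers.

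All members are named. Of each of the 5 lists, the rule named up to 6 called genes with the largest differences or, where none was called, the 3 most abundant, and of these the text gives examples. Outside the rule, Cd8a, Cd8b1, Gzmc to Gzmn, Gzmk in MPP, and Tbx21 and Eomes between genotypes were named after their values were seen. Members and lists were chosen with earlier results of these data known. Positions are from GENCODE M21 (GRCm38). DESeq2 1.42.0, no filter, other scalings, a replicate block, fewer groups and leaving out each library were tried.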

Additional observations from a re-analysis of the deposited data

Results flagged for a closer look

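For 4 members, both KO libraries lay above both WT libraries in LSK and below them in MPP. The share of all genes that turned this way was not counted. The difference in mean CPM, KO minus WT, was 2.02 in LSK and -14.0 in MPP for Gzma, 145 in LSK and -301 in MPP for Nkg7, 1.97 in LSK and -7.03 in MPP for Prf1, and 3.18 in LSK and -8.52 in MPP for Cxcr3. For Mut minus WT, Nkg7 (172 in LSK, -213 in MPP) and Klrd1 (2.62 in LSK, -3.60 in MPP) did the same. Gzmb did the opposite, with -28.0 in LSK and 10.0 in MPP. The interaction term of the fit over all genes passed the threshold for Nkg7 and Cxcr3 of the 4 members for KO against WT, not for Gzma and Prf1, and for Nkg7 and Klrd1 of the 3 members for Mut against WT, not for Gzmb. Gzmb and Ncr1, which did not turn this way for KO, passed it too. Of all genes tested, 0.727% passed it for KO against WT and 2.53% for Mut against WT. The members were chosen on these same values, so no support is drawn from those calls.

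Among the other lymphocyte genes, an interaction term gave a higher genotype difference in LSK than in MPP by edgeR's quasi-likelihood test with Benjamini-Hochberg adjustment. For KO against WT the log2 interaction was 1.40 for Cst7 (adjusted p = 0.0301), 0.81 for Srgn (0.0434), 8.94 for Cx3cr1 (0.0415), 4.69 for Ccr9 (0.0440) and 1.89 for Ets1 (0.0485). For Mut against WT it was 1.49 for Cst7 (adjusted p = 0.00831), 0.87 for Srgn (0.0156) and 8.31 for Cx3cr1 (0.0243). Cx3cr1 had 0 counts in LSK WT, so the size of its fitted value is no measure of the difference.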

How the results depend on the processing

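Counts are of lymphocyte genes called beside the 8 members, and the cause of each shift was not tested. With DESeq2 there were 7 for LSK KO against WT, 12 for LSK Mut against WT, 5 for MPP KO against WT, 4 for MPP Mut against WT, 5 for MPP KO against Mut, 38 for LSK against MPP in Mut, and 12 and 13 for the KO and Mut interactions. With no filter they were 5 for LSK Mut against WT, 6, 4 and 4 for the MPP comparisons in the same order, 35 for LSK against MPP in Mut, and 9 and 10 for the interactions. Over all genes, the calls with no filter were 475, then 189, 217 and 195, then 1715, and 278 and 662 in this order. With spike-in scaling they were 1 and 16 for LSK KO and Mut against WT, 17 for MPP Mut against WT, 18 for MPP KO against Mut, 49 and 54 for LSK against MPP in KO and Mut, and 0 and 31 for the interactions. In this order they are 1.43%, 22.9%, 17.9%, 18.9%, 51.6%, 56.8%, 0% and 32.6% of the lymphocyte genes. Of all genes, 0.539%, 22.8%, 17.7%, 25.1%, 85.6%, 89.6%, 0.0143% and 38.7% were called. With the compared groups alone they were 28 for LSK against MPP in WT and 1 and 0 for the interactions, where 953, 7 and 54 of all genes were called. Without both LSK WT libraries, an alternative chosen after seeing the data, LSK against MPP in Mut gave 38, and 2263 over all genes. Leaving out each library gave 0 to 13 and 0 to 16 for LSK KO and Mut against WT, 0 to 1 for MPP KO and MPP Mut against WT, 0 to 0 for KO against Mut in either population, 13 to 46 in KO, 14 to 40 in Mut and 37 to 49 in WT for LSK against MPP, and 0 to 12 and 1 to 10 for the interactions.

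Spike-in scaling turned 30 of the 87 named log2 differences, all of them of LSK from MPP. In WT they became 0.30 for Stx11, 0.73 for Cst7, 2.31 for Srgn, 2.89 for Ctsw, 2.995 for Rab27a, 0.74 for Ets1 and 1.30 for Zbtb16. In KO they became 2.58 for Cst7, 3.56 for Srgn, 0.63 for Cd7, 2.65 for Tyrobp, 0.88 for Cxcr6, 0.84 for Ccr2, 0.86 for Il2rb, 1.80 for Cxcl10, 2.60 for Id2 and 3.06 for Ets1. In Mut they became 3.93 for Cst7, 4.87 for Srgn, 1.13 for Cd7, 2.87 for Cx3cr1, 3.45 for Tyrobp, 4.02 for Fcer1g, 2.06 for Cd3d, 0.86 for Il2rb, 3.20 for Il7r, 3.37 for Ccr2, 1.06 for Bcl11b, 3.90 for Id2 and 4.01 for Ets1. Spike-in scaling also ended the call of 33 others and left 24. The other 17 alternatives turned none, and the call was lost for 18 with the compared groups alone, 9 with a replicate block and 1 with DESeq2.

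The replicate numbers did not pair the libraries: deviations of same-numbered libraries correlated between -0.05 and 0.04. With a replicate block the counts were 29, 22 and 45 for LSK against MPP in KO, Mut and WT and 1 and 3 for the KO and Mut interactions, and 0 between genotypes. With 2 technical libraries per group and limits of 0.135 to 0.317 CPM for a count of 0, small differences of the scarce members in LSK were not detectable at this depth.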
